A study of Mus musculus with 24 samples.

Results

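Aminoacyl-tRNA synthetases, the enzymes that join each amino acid to its transfer RNA, were followed across mouse T6E leukaemia cells with different levels of Notch activity. Of 36 synthetase genes listed, 34 were measured by a probe set that names 1 gene, among 19938 genes in all. They comprise 18 enzymes of the cytosol and 16 of the mitochondrion. Dars, for aspartate, is not analysed here, and Aars, for alanine, shares its probe set with Exosc6. Mars was found under its current symbol, Mars1. The rule lists the genes by function and uses no measured value, although the list was drawn up with earlier results of these data known. A gene with several probe sets is represented by the brightest of them on average.

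T6E is a mouse line of T-cell acute lymphoblastic leukaemia. The labels name 4 constructs put into the cells: ICN1, the intracellular and active piece of Notch 1; R1984A, the same piece with a substitution that prevents its dimerization; DNMAML, a dominant negative form of the Notch coactivator Mastermind-like; and MigR1, the empty vector. Each was treated for 6 hours with 1 uM compound E, which is a gamma secretase inhibitor (GSI), or with DMSO, the solvent. GSI blocks the cleavage that releases the cell's own Notch, and the 2 intracellular forms do not need that cleavage. The 8 groups are ICN1-GSI, ICN1-DMSO, R1984A-GSI, R1984A-DMSO, DNMAML-GSI, DNMAML-DMSO, MigR1-GSI and MigR1-DMSO, with 3 arrays in each. All 8 groups come from 1 cell line. The labels do not tell whether the 3 samples of a group were grown separately. The p-values therefore cover only the spread among the samples at hand, and that spread could be technical.

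Animal cells charge their tRNAs with a cytosolic set of synthetases, and a second set, encoded in the nucleus and imported, charges those of the mitochondrion. Gars and Kars serve both compartments from 1 gene. In the cytosol, the enzymes for arginine, aspartate, glutamine, glutamate with proline, isoleucine, leucine, lysine and methionine are held in a multisynthetase complex by scaffold proteins, and the others work outside it. Synthetase genes are known as targets of Myc and, in amino acid shortage, of the stress factor Atf4. Myc is itself a direct Notch target in T-cell leukaemia.

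The array values are log2 expression values, and a log2 difference of 1 is a doubling. All differences below are on that scale, with the standard error (SE) of the fit. A gene was called when the Benjamini-Hochberg adjusted p of limma's moderated test was under 0.05 over all 19938 genes, and every adjusted p below comes from that test. Array medians lay between 3.90 and 4.18. Arrays of 1 group correlated at 0.982 to 0.994 over all genes. The T-lineage markers Cd3d, Cd3e and Cd3g averaged 9.58, 10.40 and 9.68, while Cd4 at 3.97 and Cd8a at 3.87 lay near the array medians. Of 10 measured T-lineage markers, 3 were lower (Cd4, Cd247 and Thy1) and 1 higher (Ptcra) in ICN1 than in DNMAML cells in both treatments. The differences in GSI and DMSO were -1.29 and -1.23 for Cd4, -1.01 and -1.42 for Cd247, -0.82 and -1.19 for Thy1 and 0.81 and 0.97 for Ptcra, and their part in the results below was not tested. Markers of B cells averaged at most 3.71, of erythroid cells 4.66, of stroma or epithelium 5.06 and of myeloid cells 5.86, the last being Cd68. The arrays numbered 3 stood apart. In 8 of 8 groups replicate 3 had the lowest mean over the cytosolic synthetases and also the lowest over the mitochondrial ones, although its array median was the highest in 8 of 8 groups. Against the mean of replicates 1 and 2, the median difference was -0.26 over cytosolic members, -0.08 over mitochondrial members and 0.03 over all genes. Each group holds 1 such array, and its part in the results was not tested beyond the values given without it. Because RNA was measured in bulk, fewer cells with a transcript and less of it per cell cannot be told apart.

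On average all 34 genes lay above 4.16, the median of the means of all genes, the lowest being Aars2 at 4.42. Group means of a single cytosolic gene spanned 0.21 to 0.77 over the 8 groups, and those of a mitochondrial gene 0.20 to 1.09. The highest of the 8 group means fell in an ICN1 group for 15 of 18 cytosolic and 11 of 16 mitochondrial genes. The lowest fell in a DNMAML group for 14 of 18 cytosolic and 6 of 16 mitochondrial genes, and in R1984A-GSI for 3 cytosolic and as many as 6 mitochondrial genes. Averaged over the cytosolic members, the level was 8.42 ± 0.14 in ICN1-GSI and 8.48 ± 0.07 in ICN1-DMSO, against 8.12 ± 0.13 in DNMAML-GSI and 8.15 ± 0.16 in DNMAML-DMSO (SD, n = 3). It was 8.24 ± 0.20 in R1984A-GSI, 8.36 ± 0.18 in R1984A-DMSO, 8.30 ± 0.26 in MigR1-GSI and 8.35 ± 0.15 in MigR1-DMSO (SD, n = 3).

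**Figure D1:**
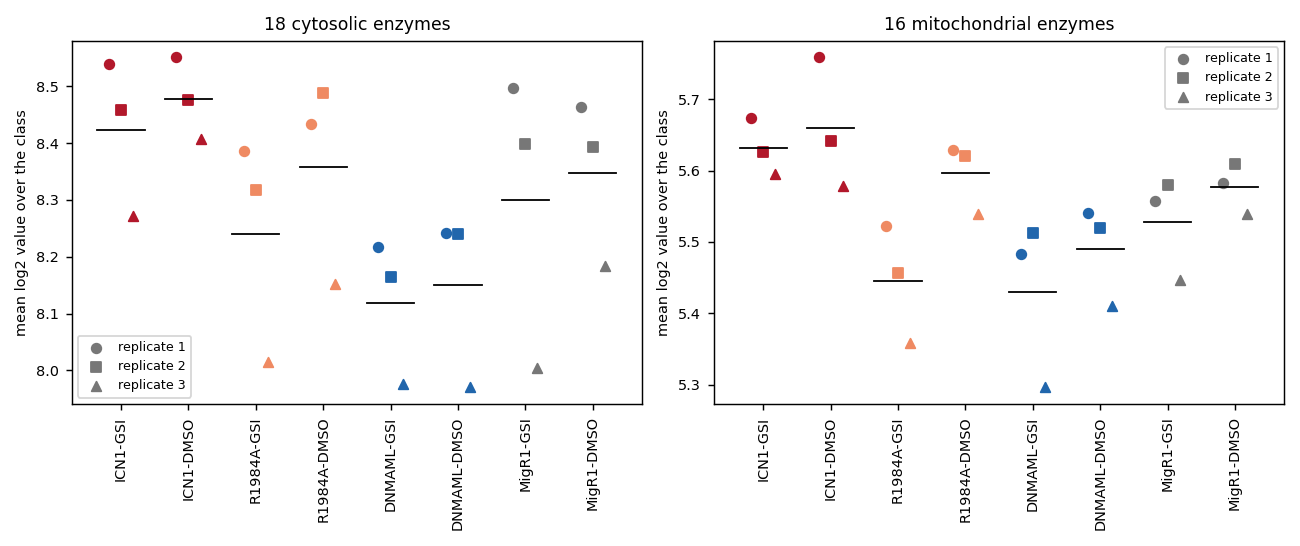
Mean log2 value over the 18 cytosolic (left) and the 16 mitochondrial (right) synthetase genes on each of the 24 arrays, by group. Symbols mark replicates 1, 2 and 3, and the line is the group mean. In 8 of 8 groups the triangle of replicate 3 is the lowest point in both panels.

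ICN1 supplies active Notch and DNMAML blocks its transcription complex, and the comparison of cells with these constructs gave the most synthetase calls. In GSI, 5 of 34 members were called, all higher in ICN1 cells, where 6.99% of all genes were called and 3.2% were called higher. In DMSO, 7 of 34 were called, again all higher in ICN1 cells, where 6.24% of all genes were called and 3.02% were called higher. The members called in both treatments were Iars, Farsb and Nars of the cytosol and Yars2 of the mitochondrion, 4 of 5 calls in GSI and 4 of 7 in DMSO. Lars, Rars and Tars were called in DMSO, and Hars2 was called in GSI. The 2 comparisons share no arrays.

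Iars, which charges tRNA with isoleucine as part of the multisynthetase complex, had the lowest adjusted p of the cytosolic genes. It measured 9.55, 9.69 and 9.54 in ICN1-GSI, against 8.93, 9.24 and 8.99 in DNMAML-GSI. It measured 9.52, 9.57 and 9.73 in ICN1-DMSO, against 8.87, 8.88 and 8.81 in DNMAML-DMSO. No DNMAML array reached any ICN1 array in either treatment. The log2 difference was 0.54 (SE 0.11, adjusted p 0.0020) in GSI and 0.75 (SE 0.11, adjusted p 5.01e-05) in DMSO. A second probe set that names Iars gave 0.53 (adjusted p 0.0198) in GSI and 0.63 (adjusted p 0.006) in DMSO in a fit of every probe set.

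Farsb encodes the beta subunit of the phenylalanine enzyme. It measured 8.49, 8.50 and 8.38 in ICN1-GSI, against 8.07, 8.08 and 7.89 in DNMAML-GSI. It measured 8.44, 8.40 and 8.40 in ICN1-DMSO, against 7.94, 7.96 and 7.83 in DNMAML-DMSO. The arrays did not overlap, and Farsb was higher by 0.44 (SE 0.11, adjusted p 0.0088) in GSI and by 0.50 (SE 0.11, adjusted p 0.0032) in DMSO. Without DNMAML-GSI replicate 3 the GSI call was lost, at an adjusted p of 0.0648. Farsa, the alpha subunit of the same enzyme, differed by 0.06 in GSI and by 0.07 in DMSO (adjusted p 0.9502 and 0.9471).

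Yars2, the mitochondrial tyrosine enzyme, had the largest difference of the 34 genes. It measured 6.83, 6.36 and 6.43 in ICN1-GSI, against 6.02, 5.75 and 5.13 in DNMAML-GSI. It measured 6.59, 6.82 and 6.76 in ICN1-DMSO, against 5.78, 5.72 and 5.80 in DNMAML-DMSO. All ICN1 arrays lay above all DNMAML arrays of the same treatment, with the DNMAML-GSI arrays the most spread. The difference was 0.90 (SE 0.18, adjusted p 0.0016) in GSI and 0.96 (SE 0.18, adjusted p 8.85e-04) in DMSO, the second being a 1.94-fold higher level.

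The promoters of these 3 genes are shown because Iars and Farsb each hold the Myc-type E-box, CACGTG, and Yars2, with the larger difference, has none in the window. Each line gives the 250 bases before the RefSeq start on the gene's own strand (build GRCm38.p6), with the E-box in capitals. The windows lie at chr13:49681880-49682129 on the plus strand (Iars), chr1:78488898-78489147 on the minus strand (Farsb) and chr16:16302715-16302964 on the plus strand (Yars2).
Iars: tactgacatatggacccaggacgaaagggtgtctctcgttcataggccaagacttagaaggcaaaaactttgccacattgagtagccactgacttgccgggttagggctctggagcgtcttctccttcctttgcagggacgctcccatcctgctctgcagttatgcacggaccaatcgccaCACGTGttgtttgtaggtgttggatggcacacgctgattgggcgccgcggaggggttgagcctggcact
Farsb: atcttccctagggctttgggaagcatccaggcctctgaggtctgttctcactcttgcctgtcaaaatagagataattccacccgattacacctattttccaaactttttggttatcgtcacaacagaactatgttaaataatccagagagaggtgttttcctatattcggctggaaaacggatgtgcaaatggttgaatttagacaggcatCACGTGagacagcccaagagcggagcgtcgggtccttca
Yars2: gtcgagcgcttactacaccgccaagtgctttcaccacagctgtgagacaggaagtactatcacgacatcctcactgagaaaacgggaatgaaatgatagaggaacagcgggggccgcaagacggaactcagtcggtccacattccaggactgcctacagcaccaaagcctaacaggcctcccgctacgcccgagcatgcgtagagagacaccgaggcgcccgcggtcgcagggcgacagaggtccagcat

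Of the 34 measured genes, 25 had a promoter in the RefSeq table, which spans 250 bases before to 50 after the start for 32851 promoters. Nars, Lars, Rars and Hars2, which were called between ICN1 and DNMAML cells, had no entry there and were not searched. CACGTG, which reads the same on both strands, occurred in 4 of the 25: at position -39 in Farsb, -69 in Iars, +20 in Tars and +22 in Ears2, counted to the first base of the match from a start at +1. It occurred in 7.2% of all the promoters. The amino acid response motif TGATGNAA, searched on both strands, occurred in 4 of the 25, at -30 in Gars, +8 in Iars, -15 in Tars and +4 in Yars, and in 4.0% of all promoters. The RBPJ core TGGGAA, the site through which Notch complexes bind DNA, occurred on either strand in 2 of the 25, Farsb and Tars2, and in 25.6% of all promoters. None of these motifs contains another, and a match is a match of letters only.

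Among the other cytosolic genes called, Nars, the asparagine enzyme, measured 9.87, 9.96 and 9.78 in ICN1-GSI, against 9.50, 9.58 and 9.49 in DNMAML-GSI. It measured 9.92, 9.85 and 9.87 in ICN1-DMSO, against 9.51, 9.50 and 9.41 in DNMAML-DMSO. The groups did not overlap, with differences of 0.35 (SE 0.09, adjusted p 0.0192) in GSI and 0.41 (SE 0.09, adjusted p 0.0061) in DMSO. The leucine and arginine enzymes, Lars and Rars, are members of the multisynthetase complex. Lars measured 9.80, 9.73 and 9.63 in ICN1-DMSO, against 9.36, 9.22 and 9.04 in DNMAML-DMSO (difference 0.51, SE 0.13, adjusted p 0.0153). Rars measured 10.22, 10.11 and 10.09 in ICN1-DMSO, against 9.87, 9.82 and 9.65 in DNMAML-DMSO (difference 0.36, SE 0.10, adjusted p 0.0276). Neither pair of groups overlapped. In GSI their adjusted p-values missed the threshold, at 0.0634 for Lars with a difference of 0.41 and at 0.0709 for Rars with a difference of 0.30. Tars, the threonine enzyme, measured 8.82, 8.82 and 8.86 in ICN1-DMSO, against 8.50, 8.43 and 8.06 in DNMAML-DMSO. It was higher by 0.51 (SE 0.14, adjusted p 0.0290) in DMSO, without overlap, and differed by 0.39 in GSI (adjusted p 0.1207).

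Several of these calls were lost when 1 array was left out. With each of the 6 arrays of a comparison left out in turn, Iars and Yars2 stayed called in both treatments, and Farsb and Nars stayed called in DMSO. In DMSO, Rars was lost in 5 of 6 such fits (adjusted p up to 0.1585), Tars in 4 of 6 (up to 0.2014) and Lars in 3 of 6 (up to 0.1023). In GSI, Nars and Hars2 were each lost in 4 of 6 fits (up to 0.098 and 0.2002). The count was 4 in DMSO without DNMAML-DMSO replicate 3, ICN1-DMSO replicate 1 or ICN1-DMSO replicate 2. It was 3 in GSI without DNMAML-GSI replicate 3 or ICN1-GSI replicate 2. Without replicate 3 of every group, 9 members were called in GSI, where 6.25% of all genes were called. In DMSO 4 were called (Farsb, Iars, Lars and Yars2), where 5.57% of all genes were called. With arrays centred on their medians, 2 members were called in each treatment, Iars and Yars2. The shares of all genes called with centred arrays or with 1 array left out are not given here. Those counts cannot be read alone. With the replicate number as a block, 13 members were called in DMSO, where 10.5% of all genes were called; the 6 added were Eprs, Hars, Wars, Yars, Hars2 and Iars2.

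**Figure D2:**
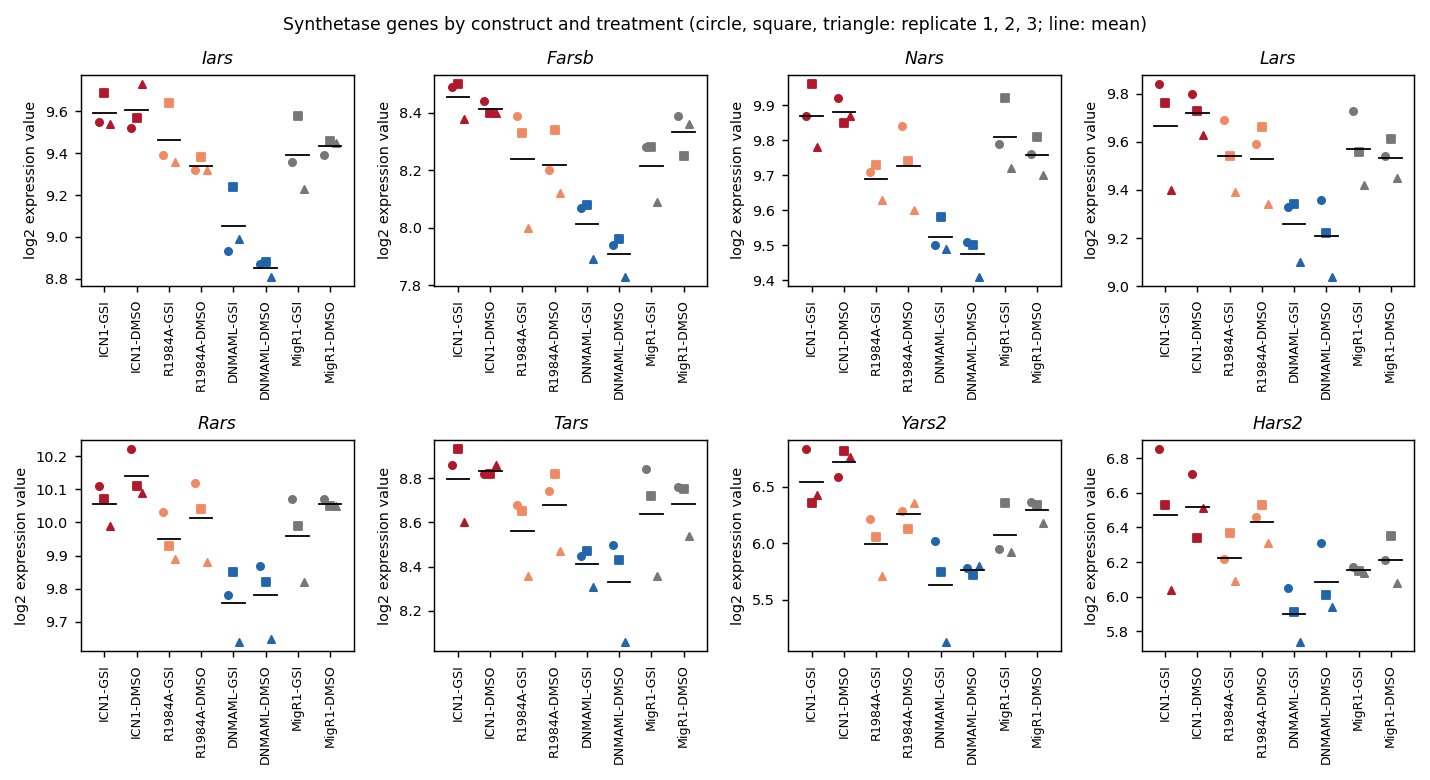
Log2 expression values of the 8 synthetase genes called between ICN1 and DNMAML cells, on every array of the 8 groups, with replicates 1 to 3 as circle, square and triangle and the group mean as a line. For the 7 genes called in DMSO every ICN1-DMSO array lies above every DNMAML-DMSO array, and for Hars2 the ICN1-GSI and DNMAML-GSI arrays overlap.

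By their medians, the differences between ICN1 and DNMAML cells were larger over the cytosolic class than over the mitochondrial class. Of 18 cytosolic genes, 17 had a positive difference in GSI and 17 in DMSO, with class medians of 0.31 and 0.33. Of 16 mitochondrial genes, 12 were positive in GSI and 13 in DMSO, with medians of 0.16 and 0.13. Over all genes 49.6% were positive in GSI and 48.8% in DMSO, with medians of 0.00 and -0.01. Every ICN1 array lay above every DNMAML array for 10 cytosolic and 4 mitochondrial genes in GSI, 14 of 34, where 8.91% of all genes did so. The same held for 11 cytosolic and 4 mitochondrial genes in DMSO, 15 of 34, where 10.8% of all genes did so. Qars, the glutamine enzyme, was the only cytosolic gene with negative differences, -0.15 in GSI and -0.03 in DMSO (adjusted p 0.8841 and 0.987). The difference between the classes is a description of these genes and has no test. The mitochondrial class was also dimmer, with a mean of 5.63 in ICN1-GSI and 5.43 in DNMAML-GSI, against 8.42 and 8.12 for the cytosolic class. The part of this lower level in the class difference was not tested. The cytosolic median minus the mitochondrial median was 0.15 in GSI, but 0.077 without ICN1-GSI replicate 1 and 0.097 without ICN1-GSI replicate 2. In DMSO it was 0.20, and 0.15 to 0.27 without any 1 array.

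Of the 7 measured enzymes of the multisynthetase complex, 1 was called in GSI and 3 in DMSO, with medians of 0.30 and 0.30. Of the 11 cytosolic enzymes outside it, 2 were called in GSI and 3 in DMSO, with medians of 0.35 and 0.41. Gars and Kars, which serve both compartments, were not called, with differences of 0.14 and 0.16 in GSI and 0.10 and 0.18 in DMSO.

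**Figure D3:**
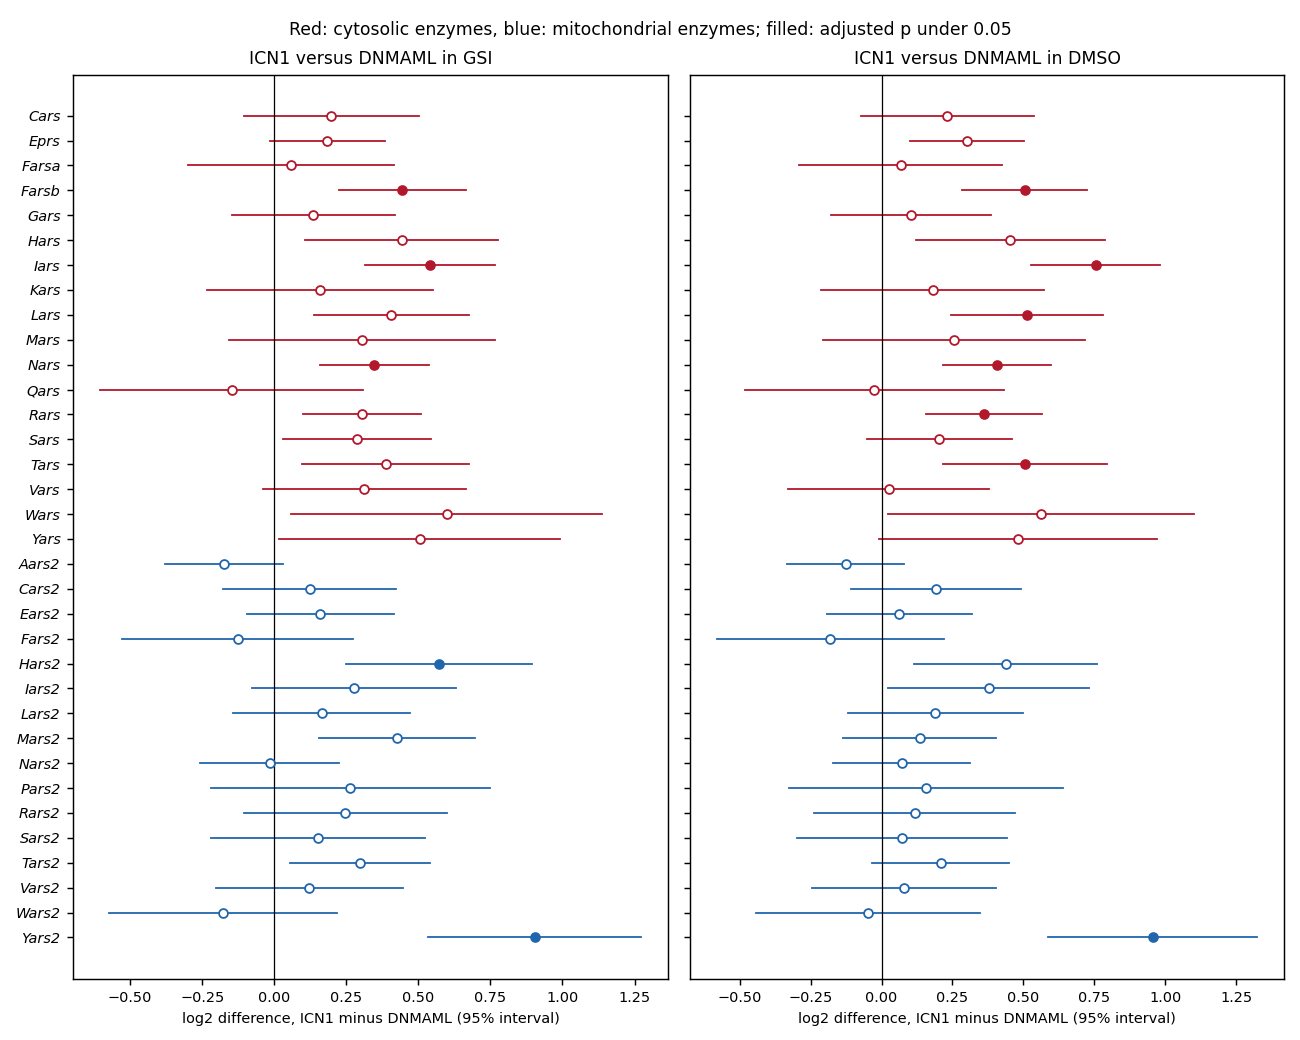
Log2 difference, ICN1 minus DNMAML, of each of the 34 genes with its 95% interval, in GSI (left) and in DMSO (right). Red marks cytosolic and blue mitochondrial enzymes, and filled points are called. The filled points are 5 in GSI and 7 in DMSO, all right of 0, with Yars2 farthest right.

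For 12 amino acids both the cytosolic and the mitochondrial enzyme have a measured gene of the same name. Both genes of a pair had positive differences for 10 of 12 pairs in GSI and 11 of 12 in DMSO. The cytosolic difference was the larger in 9 of 12 pairs in GSI and in 10 of 12 in DMSO. Both genes were called in 0 of 12 pairs in the fit without a block. With the replicate number as a block, both genes of the histidine, isoleucine and tyrosine pairs were called in DMSO. In GSI the block called both genes of the histidine and tyrosine pairs. Iars was called beside Iars2, which measured 6.51, 6.48 and 6.12 in ICN1-GSI, against 6.28, 6.19 and 5.80 in DNMAML-GSI, and 6.46, 6.59 and 6.42 in ICN1-DMSO, against 6.29, 6.10 and 5.94 in DNMAML-DMSO. The Iars2 difference was 0.28 in GSI and 0.38 in DMSO (adjusted p 0.5193 and 0.2768). Nars was called beside Nars2, whose differences were -0.02 in GSI and 0.07 in DMSO.

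In the fit without a block, the tyrosine and histidine pairs ran the other way in calls. Without replicate 3 of every group, Yars and Yars2 were both called in GSI (limma adjusted p 0.0089 and 0.02). Yars measured 7.96, 7.78 and 7.22 in ICN1-GSI, against 7.24, 7.34 and 6.86 in DNMAML-GSI, a difference of 0.50 (SE 0.24, adjusted p 0.2959). In DMSO its difference was 0.48 (SE 0.24, adjusted p 0.3456). These differences exceeded those of Nars, which was called in both treatments with an SE of 0.09. Hars2 measured 6.85, 6.53 and 6.04 in ICN1-GSI, against 6.05, 5.91 and 5.74 in DNMAML-GSI, and was higher by 0.57 (SE 0.16, adjusted p 0.0235), although ICN1-GSI replicate 3 lay just below the highest DNMAML-GSI array. Hars, the neighbouring gene of Hars2 on chromosome 18 in RefSeq, measured 8.33, 8.20 and 8.35 in ICN1-GSI, against 8.01, 7.92 and 7.61 in DNMAML-GSI (difference 0.44, adjusted p 0.1241). In the tryptophan pair, Wars differed by 0.60 in GSI and 0.56 in DMSO (SE 0.26, adjusted p 0.2364 and 0.2961). Its mitochondrial partner Wars2 differed by -0.18 and -0.05. Differences between the 2 genes of a pair were not tested.

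DNMAML cells, in which Notch coactivation is blocked, were also set against empty-vector cells. Of 10 measured T-lineage markers, 3 were called higher in DNMAML-DMSO than in MigR1-DMSO: Cd247 by 1.08, Cd4 by 0.97 and Thy1 by 0.72. Their part in the differences below was not tested. In DMSO, 2 of 34 members were called, both lower in DNMAML cells, where 1.94% of all genes were called and 0.833% were called lower. Iars measured 8.87, 8.88 and 8.81 in DNMAML-DMSO, against 9.39, 9.46 and 9.45 in MigR1-DMSO, a difference of -0.58 (SE 0.11, adjusted p 0.0041). The second probe set that names Iars gave -0.44 in the fit of every probe set and was not called (adjusted p 0.144). Farsb measured 7.94, 7.96 and 7.83 in DNMAML-DMSO, against 8.39, 8.25 and 8.36 in MigR1-DMSO, a difference of -0.43 (SE 0.11, adjusted p 0.0363). Neither gene's groups overlapped. Every DNMAML-DMSO array lay below every MigR1-DMSO array for 10 of 34 members, where 8.02% of all genes did so. Besides the 2 called these were Eprs, Lars, Nars, Rars and Tars of the cytosol and Tars2, Vars2 and Yars2 of the mitochondrion, with adjusted p-values of 0.1536 or more. The cytosolic median was -0.22 and the mitochondrial median -0.07. The gap between these medians, -0.15, was -0.059 without MigR1-DMSO replicate 1 and -0.066 without DNMAML-DMSO replicate 3.

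The Iars call held when any 1 of the 6 arrays was left out (adjusted p up to 0.0263), and that of Farsb was lost in 6 of 6 such fits (up to 0.1534). Without replicate 3 of every group 0 members were called, where 1.59% of all genes were called. Iars then differed by -0.55 (adjusted p 0.0557) and Farsb by -0.37 (adjusted p 0.1185). With arrays centred on their medians 0 were called as well, a count that cannot be read alone because the share of all genes is not given. With the replicate number as a block 6 members were called, where 4.68% of all genes were called; Lars, Nars, Rars and Tars were added. In GSI, 0 of 34 members were called between DNMAML and MigR1 cells, where 0.191% of all genes were called. The medians were -0.20 over cytosolic and -0.05 over mitochondrial genes, a gap of -0.15 that was -0.061 without MigR1-GSI replicate 1.

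Neither intracellular Notch form gave a synthetase call against the empty vector. For ICN1 against MigR1, 0 of 34 were called in GSI and 0 in DMSO, where 2.35% and 0.727% of all genes were called. All 18 cytosolic differences were positive in DMSO and 15 of 18 in GSI, with medians of 0.10 in GSI and 0.13 in DMSO. Over all genes 47.3% were positive in GSI and 49.4% in DMSO. Cytosolic members were lower together in replicate 3, so their signs are not independent, and they were not tested. Yars2 averaged 6.54 ± 0.25 in ICN1-GSI and 6.08 ± 0.25 in MigR1-GSI (SD, n = 3 each), a difference of 0.46 with a limma adjusted p of 0.2707. In DMSO it averaged 6.72 ± 0.12 in ICN1 cells and 6.30 ± 0.10 in MigR1 cells (SD, n = 3 each), a difference of 0.43 with a limma adjusted p of 0.6457. For R1984A against MigR1, 0 of 34 were called in either treatment, where 1.36% of all genes were called in GSI and 0.978% in DMSO. The cytosolic medians were -0.05 in GSI and 0.00 in DMSO.

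The ICN1 and R1984A forms differ in the ability to dimerize, so their direct comparison asks about that property. Here 0 of 34 members were called in GSI and 0 in DMSO, where 1.1% and 0.963% of all genes were called. Of 18 cytosolic genes, 18 were positive in GSI, with a median of 0.18, and 16 in DMSO, with a median of 0.14. Over all genes 49.7% were positive in GSI and 50.2% in DMSO. In each group replicate 3 had the lowest cytosolic mean, so the signs of members are not independent, and they were not tested. The mitochondrial medians were 0.24 and 0.04. Yars2 measured 6.83, 6.36 and 6.43 in ICN1-GSI, against 6.22, 6.06 and 5.71 in R1984A-GSI, a difference of 0.54 (95% interval 0.17 to 0.91, adjusted p 0.2227). In DMSO its difference was 0.46 (95% interval 0.09 to 0.83, adjusted p 0.4156). For Iars the difference was 0.13 in GSI (95% interval -0.09 to 0.36) and 0.27 in DMSO (95% interval 0.04 to 0.49). These intervals do not show that the 2 forms act alike on these genes.

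**Figure D4:**
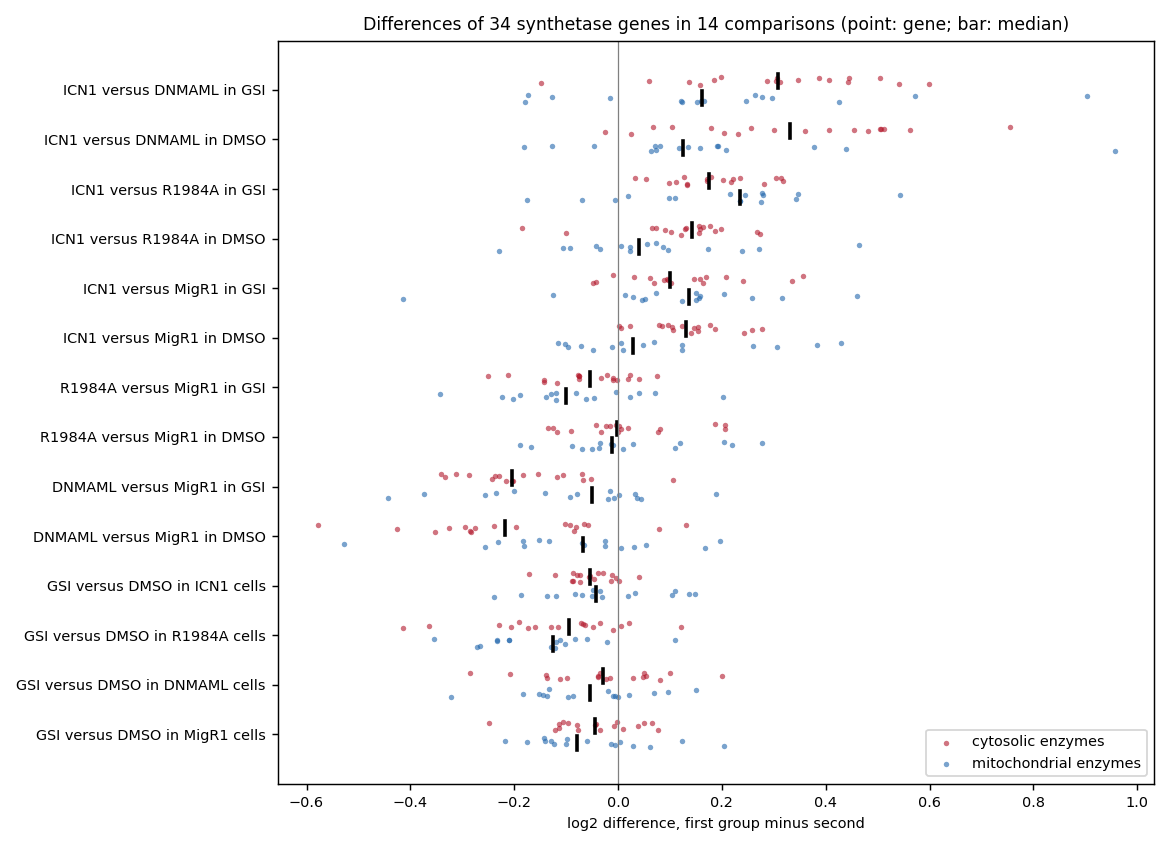
Log2 differences, first group minus second, of the 34 synthetase genes in 14 comparisons; each point is a gene, red for cytosolic and blue for mitochondrial enzymes, and the black bar is the class median. The cytosolic medians are 0.31 and 0.33 for ICN1 against DNMAML and -0.20 and -0.22 for DNMAML against MigR1, and they lie nearer 0 in the responses to GSI.

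Treatment with GSI for 6 hours gave no synthetase call in any construct. The counts called were 0 of 34 in ICN1, R1984A, DNMAML and MigR1 cells, where 0%, 0%, 0.00502% and 0.166% of all genes were called. The cytosolic medians were -0.05, -0.09, -0.03 and -0.04 in the same order, and the mitochondrial medians -0.04, -0.12, -0.05 and -0.08. The response also gave 0 calls when that in DNMAML, ICN1 or R1984A cells was set against that in MigR1 cells. Of all genes, 0.00502%, 0.015% and 0.0251% were called in the same order. In the same MigR1 cells Myc, the transcription factor, averaged 7.78 ± 0.61 in GSI and 9.28 ± 0.04 in DMSO (SD, n = 3 each), a difference of -1.50 with a limma adjusted p of 7.03e-04. Nrarp, a direct Notch target, fell by 1.21 on the log2 scale (adjusted p 1.5e-06). At 6 hours both checks of the Notch signal were lower in GSI while Iars measured 9.36, 9.58 and 9.23 in MigR1-GSI, against 9.39, 9.46 and 9.45 in MigR1-DMSO. Between ICN1 and DNMAML cells Myc differed by 2.23 in GSI and 1.64 in DMSO.

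Genes that work beside the synthetases were described from 4 lists. For ICN1 against DNMAML cells their counts stand against 6.99% of all genes called in GSI (3.2% higher) and 6.24% in DMSO (3.02% higher). Of 9 synthetase-associated proteins, only Eef1e1, a scaffold of the multisynthetase complex also known as Aimp3, was called between ICN1 and DNMAML cells. It averaged 8.84 ± 0.08 in ICN1-GSI and 7.81 ± 0.31 in DNMAML-GSI (SD, n = 3 each), a difference of 1.03 with a limma adjusted p of 7.9e-04. In DMSO the difference was 1.09 (adjusted p 5.05e-04). Against MigR1-DMSO it was -0.78 in DNMAML-DMSO (adjusted p 0.0318), a call lost in 6 of 6 fits that left out 1 array. The differences of Eef1e1 were larger than that of any synthetase gene called in the same comparison. The medians of the list were 0.31 in GSI and 0.27 in DMSO for ICN1 against DNMAML.

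Of 19 measured tRNA supply genes, which transcribe, trim, modify or export tRNA, 11 were called in GSI and 7 in DMSO, all higher in ICN1 than in DNMAML cells, with medians of 0.52 and 0.48. Pop1, a subunit of the RNase P that cuts tRNA leaders, was higher by 0.89 in GSI and 0.74 in DMSO. Nsun2, a tRNA methyltransferase, was higher by 0.69 and 0.66. Polr3e, a subunit of RNA polymerase III, was higher by 0.79 in GSI, and Xpot, which exports tRNA from the nucleus, by 0.77 in DMSO. Polr3g, of the same polymerase, was higher by 0.71 in GSI, and Trnt1, which adds the CCA end, by 0.57 in DMSO. With 1 array left out in GSI, Polr3g and Trmt1 were each lost in 5 of 6 fits, Polr3a in 4 and Xpot in 3. Elac2 was lost in 2 of 6, and Trnt1 and Trmt61a each in 1. In DMSO, Polr3b was lost in 4 of 6 such fits and Trnt1 in 1. In DNMAML-DMSO against MigR1-DMSO, where 1.94% of all genes were called, 3 were called lower. The differences were -0.58 for Pop1, -0.57 for Nsun2 and -0.51 for Trnt1. Each call was lost in 3 or more of 6 fits that left out 1 array. In ICN1-GSI against MigR1-GSI, where 2.35% of all genes were called, 3 were called higher, Polr3e by 0.64, Pop1 by 0.57 and Polr3a by 0.57, lost in 5, 2 and 4 of 6 such fits.

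Of 34 measured amino acid stress genes, 6 were higher and 1 lower in ICN1 than in DNMAML cells in GSI, and 6 were higher in DMSO, with medians of 0.24 and 0.12. The list spans the Atf4 response, and Ddit3 was its only called member that was lower in ICN1 cells. Nupr1, a stress-induced nuclear protein, was higher by 1.93 in GSI and 2.09 in DMSO. Slc7a1, a carrier of arginine and lysine, was higher by 0.76 in GSI and 0.53 in DMSO, the call in DMSO lost in 1 of 6 fits that left out 1 array. Aldh18a1 was higher by 0.64 in GSI and 0.64 in DMSO, calls lost in 6 and 5 of 6 such fits. Eif4ebp1 was higher by 0.76 in GSI, and Stc2 by 0.59 in DMSO, the Stc2 call lost in 2 of 6 such fits. Ddit3, a stress transcription factor, fell by 0.48 in ICN1-GSI against DNMAML-GSI. Atf4 was higher by 0.47 in DMSO, a call lost in 5 of 6 such fits. Of 22 measured translation factors, 1 was called in GSI and 2 in DMSO, all higher in ICN1 cells: Gfm1, the mitochondrial elongation factor G, by 0.55 and 0.47, and Eif2s2, a subunit of the factor that brings initiator tRNA, by 0.35 in DMSO, a call lost in 6 of 6 fits that left out 1 array. The counts of translation factors are near the share of all genes called in either direction, 6.99% in GSI and 6.24% in DMSO. Against MigR1 cells, where 2.35% of all genes were called in GSI and 0.727% in DMSO, ICN1 cells had 1 stress gene called. This was Nupr1, higher by 1.66 in GSI and 1.63 in DMSO. DNMAML cells against MigR1 cells gave Ddit3 at 0.51 in GSI, where 0.191% were called, and Slc7a1 at -0.64 in DMSO, where 1.94% were. The Ddit3 call was lost in 6 of 6 fits that left out 1 array.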

How the data were processed

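RNA of 24 samples was hybridised to Affymetrix Mouse Gene 1.0 ST arrays. The authors deposited 1 log2 expression value per probe set and array, the scale being read from the values, which run from 1.28 to 13.47. Per the submitters' processing notes the R packages oligo and limma were used; the sources used here do not give the background correction or the normalization. The number of arrays limits the precision.

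Of 35556 probe sets, 21789 had 1 gene symbol in the platform annotation, 1621 several and 12146 none. RefSeq gene identifiers matched 21698 of those with 1 symbol and changed 0 symbols. One probe set per gene, the highest mean over 24 arrays, left 19938 genes (999 had several), with no filter on dim genes. limma 3.58.1 in R 4.3.3 fitted 1 mean per group over all arrays, with 16 residual and 6.56 prior degrees of freedom, and was tested on simulated data. Tests are two-sided. There were 17 comparisons: 14 between pairs of groups and 3 of the GSI response between constructs.

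The genes, lists and tests were chosen with earlier results of these data known. Any measured member may be named. Called members and pairs of enzymes differing in call or direction have values by array. Other lists give up to 4 called genes per comparison with the largest differences. Ddit3 and Atf4 of the stress list are given besides, and further tRNA supply genes are named only for calls lost.

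Titles number the samples 1 to 3. In 9 of 17 comparisons every pair of same-numbered samples deviated together with a correlation over 0.1, for example at 0.114 or more for DNMAML against MigR1 and 0.11 or more for ICN1 against DNMAML, both in DMSO. That pairing comes from the data, not the labels, and in the other 8 at least 1 pair fell below 0.1, the lowest for ICN1 against DNMAML in GSI being 0.0607. Alternatives were the replicate block, a further quantile normalization, median centring, array weights, a dim filter, every probe set, an intensity trend, only the groups compared, leaving out each array and leaving out replicate 3 of every group.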

Additional observations from a re-analysis of the deposited data

How the results depend on the processing

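The count of members called depended on the setting in 4 of 17 comparisons, and in the other 13 it kept to the value reported. For DNMAML against MigR1 in DMSO, with 2 members called, the count was 6 with the replicate block, 5 after a second quantile normalization, 4 with array weights, 1 with only the groups compared, 0 with arrays centred on their median, 0 without replicate 3 of every group, and 1 without any 1 array. For ICN1 against DNMAML in DMSO, with 7 called, it was 13 with the replicate block, 2 with centred arrays (Iars and Yars2), 4 without replicate 3 of every group and 4 to 7 without 1 array. For ICN1 against DNMAML in GSI, with 5 called, it was 13 with the replicate block, where 11.3% of all genes were called and the numbers do not pair the samples by the rule used. It was 12 after a second quantile normalization, 10 with array weights, 8 with dim genes left out, 9 without replicate 3 of every group, 2 with centred arrays (Iars and Yars2), 2 with only the groups compared and 3 to 6 without 1 array. The share of all genes called also moved with the setting, for example to 6.25% without replicate 3, so these counts cannot be read alone. For ICN1 against R1984A in GSI, array weights called 1 member, Ears2 (log2 difference 0.40, limma adjusted p 0.0456), named after its value was seen. The block moved no other count of members called.

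The 14 log2 differences of called members were refitted under 210 settings and reversed in 0. They lost their call in 10 of 14 with centred arrays, 5 of 14 with only the groups compared, 5 of 14 without replicate 3 and 27 of 84 without 1 array. The cause was not tested. The cytosolic minus mitochondrial median moved by more than the replicate SD of 0.097 in 5 of 307 settings, each without 1 array. That bound is wide beside these differences. For DNMAML against MigR1 in DMSO, a value of -0.059 without 1 array still counted as unmoved. The count of 5 therefore does not show that the differences are stable. Its ranges without 1 array were -0.066 to 0.12 for GSI in MigR1 cells, -0.078 to 0.10 for ICN1 against MigR1 in GSI and -0.066 to 0.10 for R1984A against MigR1 in GSI. For the GSI response they were -0.12 to 0.10 in DNMAML and -0.12 to 0.082 in ICN1 cells, each minus that in MigR1 cells. Ranges also crossed 0 for GSI in DNMAML cells (-0.030 to 0.055) and ICN1 cells (-0.058 to 0.017), ICN1 against R1984A in GSI (-0.057 to 0.021), R1984A against MigR1 in DMSO (-0.079 to 0.078) and the GSI response in R1984A minus that in MigR1 cells (-0.079 to 0.088). These class differences had no settled sign.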

Other observations

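The probe set of Aars, the cytosolic alanine enzyme, also names Exosc6, a subunit of the RNA exosome, so its values cannot be given to either gene. It averaged 7.60 ± 0.12 in ICN1-GSI and 7.59 ± 0.07 in ICN1-DMSO, 7.50 ± 0.22 in R1984A-GSI and 7.58 ± 0.17 in R1984A-DMSO (SD, n = 3). It averaged 7.43 ± 0.14 in DNMAML-GSI and 7.44 ± 0.07 in DNMAML-DMSO, 7.53 ± 0.26 in MigR1-GSI and 7.57 ± 0.16 in MigR1-DMSO (SD, n = 3). Replicate 3 was the lowest array of the group in 8 of 8 groups here too.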
